A study of Mus musculus with 6 samples.

Results

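The genes of the mitochondrial protein import machinery were read in 4T1-tetL1(GLucAI) cells, a mouse mammary carcinoma line with an inducible LINE-1 (L1) retrotransposon. Members were all genes of the count table whose symbol starts with Timm or Tomm followed by a digit, together with Dnajc19, Pam16, Grpel1, Grpel2, Pmpca, Pmpcb, Samm50, Mtx1, Mtx2, Chchd4 and Gfer. The rule took 36 of 24421 genes, 12 of them outer membrane and 12 inner membrane, with the matrix proteins Grpel1 and Grpel2 counted as inner. It used symbols only, and no measured value, but was set with earlier results of these data known. It did not take Timm29, a TIM22 subunit listed in the table under an older symbol, which stood at 35.3 CPM in untreated and 34.4 CPM in doxycycline libraries (CPM, counts scaled to a common library total after TMM normalization).

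Total RNA was sequenced from 3 untreated cultures, whose treatment tag reads Vehicle, and from 3 cultures given doxycycline at 400 ng/mL for 48 h. All 6 carried Tet-On 3G under the EF1α promoter and a recoded mouse L1 with a Gaussia luciferase reporter of retrotransposition. A bidirectional doxycycline-responsive promoter, TRE3G-BI, drove this L1 and firefly luciferase. The line, of strain label BALB/cfC3H, was a stably selected PiggyBac population and not 1 clone. No library of cells without the cassette given doxycycline was analysed here, so effects of the drug and of L1 induction cannot be told apart. The cassette transcript was not analysed here either, and every direction rests on the labels. The question put to these genes was whether their transcripts differed between the groups, and whether genes of the outer and of the inner membrane differed in different ways.

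Most mitochondrial proteins are encoded in the nucleus, made in the cytosol and imported. Precursors enter through the TOM complex of the outer membrane, where Tomm20, Tomm22 and Tomm70a are receptors and Tomm40 forms the pore. From there the SAM complex inserts outer membrane barrels, the MIA pathway folds small cysteine-rich proteins in the intermembrane space, and small TIM chaperones carry hydrophobic precursors to the TIM22 complex, which inserts carriers into the inner membrane. Precursors with a cleavable presequence pass the TIM23 complex, are pulled in by an Hsp70 motor and are cut by the matrix processing peptidase.

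The promoter windows of 5 members are shown because these members had unadjusted p-values under 0.05 between the groups. Each runs from 250 bases before to 50 bases after the RefSeq start on GRCm38.p6, 5′ to 3′ on the gene's strand. Capitals mark matches, on either strand, to the cores searched for NRF1 (GCGCANGCG), ETS factors (CCGGAAG), YY1 (AAGATGGCG), the E-box (CACGTG) and the CCAAT box.
Tomm22, chr15:79670618-79670917, plus strand: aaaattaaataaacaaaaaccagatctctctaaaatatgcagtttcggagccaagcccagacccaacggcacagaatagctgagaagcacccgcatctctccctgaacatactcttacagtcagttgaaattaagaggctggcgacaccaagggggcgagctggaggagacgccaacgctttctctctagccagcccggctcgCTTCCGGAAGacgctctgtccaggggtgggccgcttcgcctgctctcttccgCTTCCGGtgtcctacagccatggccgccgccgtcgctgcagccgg
Timm23, chr14:32201842-32202141, minus strand: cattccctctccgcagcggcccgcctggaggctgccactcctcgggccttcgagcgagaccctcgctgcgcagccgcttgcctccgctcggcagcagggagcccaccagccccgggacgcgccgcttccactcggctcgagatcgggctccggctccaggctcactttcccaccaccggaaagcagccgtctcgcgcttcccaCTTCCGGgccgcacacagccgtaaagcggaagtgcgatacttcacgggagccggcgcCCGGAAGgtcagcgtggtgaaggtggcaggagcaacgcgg
Timm13, chr10:80900920-80901219, minus strand: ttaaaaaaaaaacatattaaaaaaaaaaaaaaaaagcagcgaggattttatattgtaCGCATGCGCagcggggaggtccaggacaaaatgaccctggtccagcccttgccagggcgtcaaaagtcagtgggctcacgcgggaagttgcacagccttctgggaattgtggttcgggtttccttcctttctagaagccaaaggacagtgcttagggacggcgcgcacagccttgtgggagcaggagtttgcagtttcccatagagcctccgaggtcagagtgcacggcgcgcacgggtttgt
Chchd4, chr6:91473374-91473673, minus strand: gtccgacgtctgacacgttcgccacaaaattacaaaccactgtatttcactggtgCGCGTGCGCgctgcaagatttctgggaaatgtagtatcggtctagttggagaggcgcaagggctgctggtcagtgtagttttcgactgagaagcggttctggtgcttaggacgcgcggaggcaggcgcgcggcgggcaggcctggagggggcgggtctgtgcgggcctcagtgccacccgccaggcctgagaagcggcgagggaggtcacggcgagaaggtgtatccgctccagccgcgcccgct
Timm44, chr8:4275856-4276155, minus strand: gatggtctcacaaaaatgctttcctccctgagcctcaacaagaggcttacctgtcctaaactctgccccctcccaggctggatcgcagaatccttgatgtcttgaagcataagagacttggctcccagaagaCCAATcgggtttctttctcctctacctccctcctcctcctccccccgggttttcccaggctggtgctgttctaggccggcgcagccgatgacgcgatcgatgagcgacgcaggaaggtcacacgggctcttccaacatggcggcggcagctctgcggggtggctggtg

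The Tomm22 window held 3 ETS matches, a pair of which overlapped, and the Timm23 window held 2. Timm13 and Chchd4 each held 1 NRF1 match, and Timm44 held 1 CCAAT match. The TATAAA core was also searched and is not capitalised, and Timm13 held 1 match to it. RefSeq promoters were matched for 32 members, of which 31 were protein-coding, and Timm21, Grpel2, Tomm7 and Tomm40l had no entry. A gene was counted for a core if any of its windows matched, and some genes, such as Tomm34, had more than 1 window. The ETS core stood in 13 of these 31 genes (41.9%), against 9.93% of all 27025 genes with a window of the same length. The 27025 genes include noncoding ones, whereas the 31 members are all protein-coding. The NRF1 core stood in 5 (16.1%, against 7.03%), namely Tomm20, Chchd4, Timm13, Timm8b and Pam16. The YY1 core stood in 2 (6.45%, against 1.64%), Mtx1 and Timm50. The E-box stood in 5 (16.1%, against 8.09%) and the TATAAA core in 3 (9.68%, against 15.7%). The CCAAT box stood in 10 genes (32.3%, against 41.1%). By position, 6 of 10 inner membrane genes, 4 of 10 outer membrane genes and 0 of 8 intermembrane space genes held the CCAAT box. The ETS core was held by 3 of 10, 4 of 10 and 3 of 8. Median GC content, from the first window of each gene, was 59.7% over the members and 52.7% over all genes. No test was run on these counts, and a match is a run of letters, not a bound site.

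Libraries held between 31653464 and 43631312 counts, of which the members took 0.185% to 0.198%, and 3 counts corresponded to 0.0683 to 0.0944 CPM. The summed level of 7 epithelial markers of 4T1 cells lay at 1834 to 1920 CPM in untreated and 1783 to 2018 CPM in doxycycline libraries. Among them Krt19 was called lower (log2 fold change -0.31, adjusted p = 0.00782, edgeR), while Cldn4 and Epcam had log2 fold changes of 0.25 and 0.13 with groups apart (adjusted p = 0.0858 and 0.336, edgeR). Leukocyte markers summed to less than 1 CPM in every library, with Adgre1 at 0. Fibroblast and vessel markers summed to 36.1 to 39.0 CPM in untreated and 28.2 to 29.8 CPM in doxycycline libraries, almost all of it Pdgfra, which was called lower (log2 fold change -0.40, adjusted p = 0.000952, edgeR). The part of these markers in the results was not tested. A change in RNA per cell and a change in the share of a kind of cell cannot be told apart in such bulk libraries.

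Of the 36 members, 34 were tested, 33 of them protein-coding. The other two had very few counts. Tomm20l, a relative of Tomm20, had 3, 2 and 7 counts in untreated and 7, 4 and 9 in doxycycline libraries. Timm8a2, a relative of Timm8a1, had 0, 1 and 0 counts in untreated and 0, 11 and 0 in doxycycline libraries.

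Transcript levels differed widely between members. Per kilobase of exon, Tomm22 was the highest at 115 ± 3.6 CPM per kb (SD, n = 3, untreated), followed by the small TOM subunits Tomm6 at 76.1 and Tomm7 at 61.3, and by Timm8b at 59.6, Tomm5 at 57.7 and Tomm40 at 55.5 CPM per kb. Timm21 at 4.52 and Tomm40l at 4.53 CPM per kb were the lowest tested coding members. The median level was 55.5 CPM per kb over TOM genes, 34.7 over the peptidase genes, 20.4 over SAM, 18.0 over motor, 16.7 over TIM22, 15.8 over small TIM, 13.2 over TIM23 and 9.86 over MIA genes. The TOM and small TIM medians include the untested Tomm20l (0.18) and Timm8a2 (0.011 CPM per kb). Levels per kilobase depend on annotated transcript ends, and the exons of Timm17a cover 7280 bases.

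**Figure D1:**
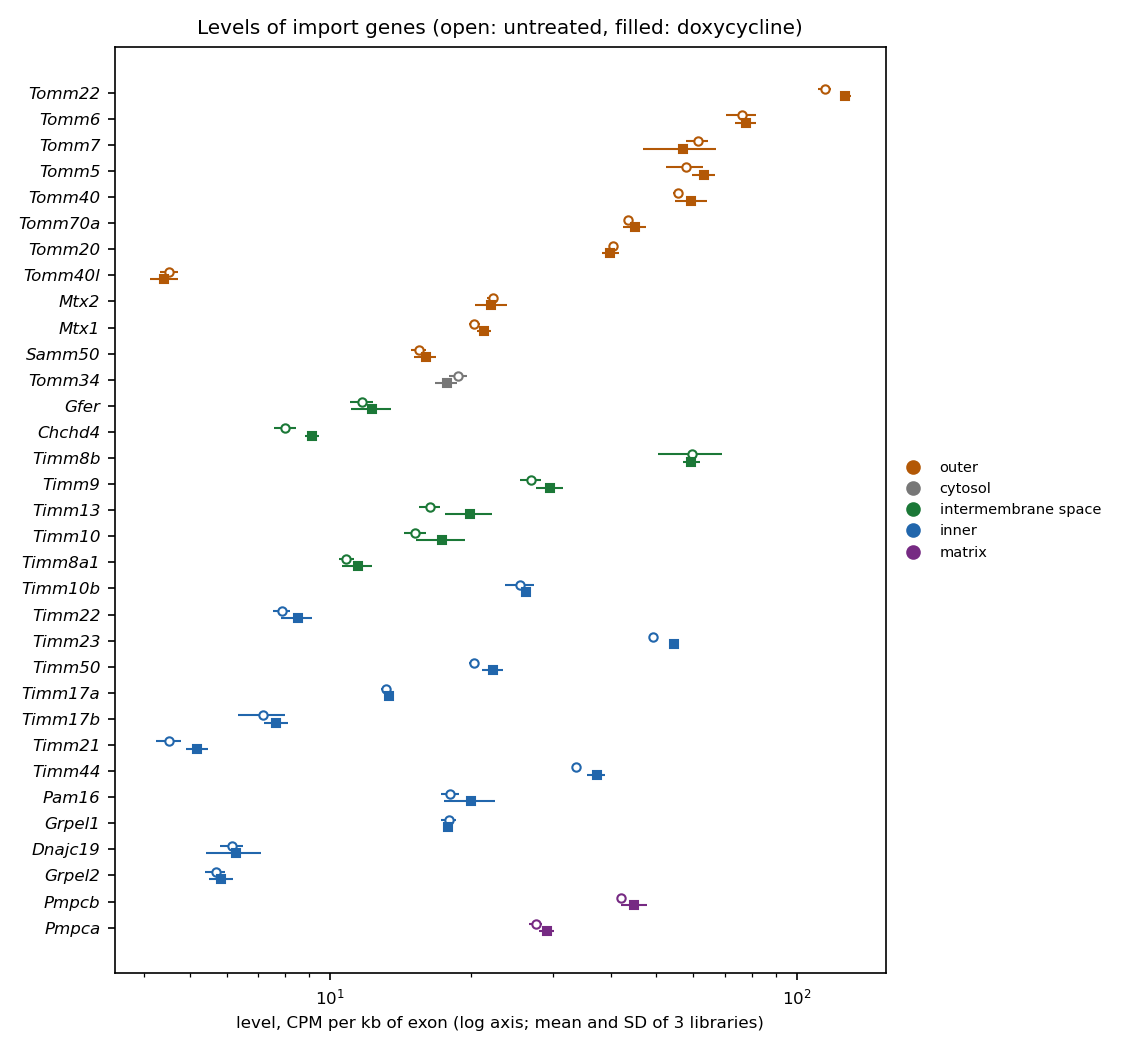
Levels of the 33 tested coding members in CPM per kb of exon on a log axis, as mean and SD of 3 untreated (open) and 3 doxycycline (filled) libraries, coloured by location. Tomm22 lies farthest right at 115 CPM per kb untreated, and most pairs of symbols nearly coincide.

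None of the 34 tested members passed the threshold between doxycycline and untreated libraries by edgeR's quasi-likelihood test, at a Benjamini-Hochberg adjusted p of 0.05, and the smallest adjusted p was 0.0805 (edgeR). Over all 13084 genes tested, 3.09% passed, 0.925% as higher and 2.16% as lower. DESeq2 and limma voom also called 0 members. By DESeq2's Wald test Tomm22 and Timm13 lay just above the threshold (adjusted p = 0.0504 and 0.0514), with 4.15% of all genes called. Unadjusted p-values were under 0.05 for 5 members (14.7%), against 16.2% of all genes tested. All 5 were higher with doxycycline, where the share over all genes was 7.25%. Log2 fold changes were above 0 for 27 members and below 0 for 7, with a median of 0.08, against 50.8% of all genes above 0 and a median of 0.002. With a correction for GC content and length, 3 members passed as higher, Tomm22, Timm13 and Chchd4, while the share called over all genes was 7%.

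Intervals of change were taken for each gene singly and were not adjusted for the number of genes. The 95% interval of all 33 coding members lay inside a 1.5-fold change in either direction, and that of 28 members inside 25% in either direction. The lowest lower bound was -20.4%, for Tomm7, and the highest upper bound was 38.8%, for Timm13. Values of the 3 libraries of each group did not overlap for 7 members (20.6%), against 21.3% of all genes. All 7 were higher with doxycycline, namely Tomm22, Chchd4, Timm13, Timm44, Timm23, Timm21 and Timm50, and 10.1% of all genes were apart in that direction.

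**Figure D2:**
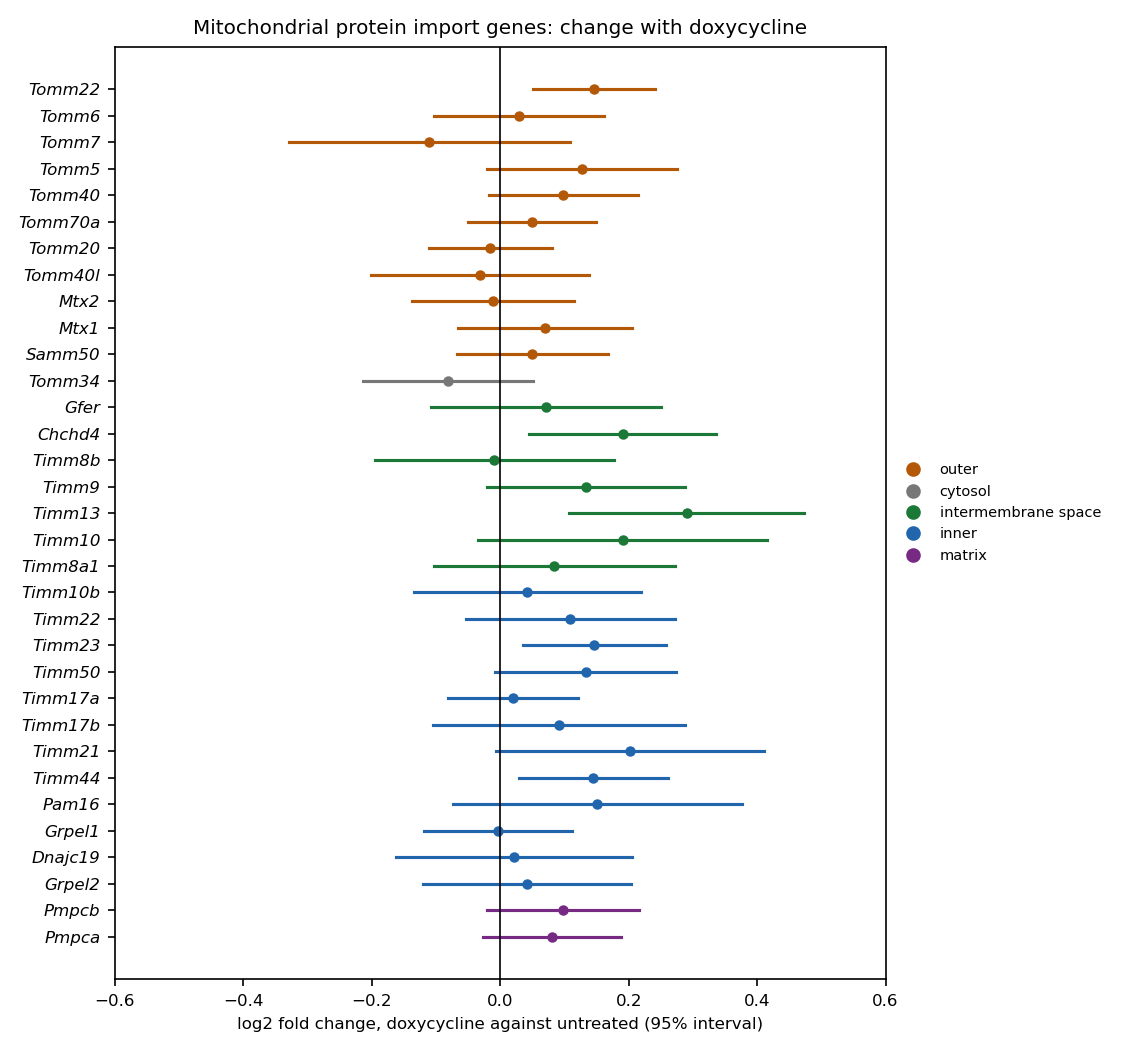
Log2 fold change of each tested coding member, doxycycline against untreated, with its 95% interval, coloured by location. 5 intervals lie above 0 and none lies below, but no member passed the adjusted threshold.

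In the TOM complex, Tomm22, the central receptor, stood at 184, 173 and 182 CPM in untreated and at 196, 196 and 205 CPM in doxycycline libraries. The groups did not overlap. The log2 fold change was 0.15 (SE 0.046, unadjusted p = 0.00422 and adjusted p = 0.0894, edgeR), a difference of 10.7% with a 95% interval from 3.64% to 18.2%. It passed without doxycycline replicate 2 (0.16, adjusted p = 0.0107, edgeR), and over all alternatives its adjusted p ran from 0.00638 to 0.34. Tomm22 lies on chromosome 15 at 79670868 to 79672862 (GRCm38).

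The other TOM genes overlapped between groups. Tomm40, the pore, stood at 91.7, 95.5 and 91.9 CPM untreated and 90.8, 106 and 102 CPM with doxycycline (log2 fold change 0.10, adjusted p = 0.405, edgeR). The receptors Tomm20 and Tomm70a had log2 fold changes of -0.02 and 0.05. The small subunit Tomm7 stood at 71.8, 64.7 and 70.3 CPM untreated and 76.5, 54.5 and 61.0 CPM with doxycycline, so that doxycycline replicate 1 was the highest of all 6 libraries and replicate 2 the lowest. Its log2 fold change was -0.11 (SE 0.10, adjusted p = 0.651, edgeR), and without doxycycline replicate 1 it was -0.26 and passed (adjusted p = 0.0235, edgeR). Tomm5 and Tomm6, further small subunits, stood at 0.13 and 0.03 on the log2 fold change scale, and the Tomm40 relative Tomm40l at -0.03.

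In the SAM complex, Samm50, its barrel-inserting channel, had a log2 fold change of 0.05 and the metaxins Mtx1 and Mtx2 of 0.07 and -0.01. Mtx1 stood at 33.7, 33.2 and 32.0 CPM untreated and 33.5, 34.6 and 35.8 CPM with doxycycline (SE 0.065, adjusted p = 0.651, edgeR), with overlapping groups (chromosome 3, 89209081 to 89213907), and its log2 fold change was 0.05 without doxycycline replicate 3. Tomm34, a cytosolic co-chaperone of precursors, stood at 46.2, 44.9 and 42.5 CPM untreated and 40.5, 41.1 and 44.6 CPM with doxycycline. The groups overlapped, with a log2 fold change of -0.08 (SE 0.064, adjusted p = 0.571, edgeR; chromosome 2, 164053538 to 164071178). Without doxycycline replicate 3 it was -0.13, and without untreated replicate 1 it was -0.05.

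In the intermembrane space, Timm13, which pairs with Timm8 proteins as a chaperone, stood at 20.4, 20.8 and 18.9 CPM untreated and 21.2, 26.0 and 26.1 CPM with doxycycline. Doxycycline replicate 1 was close to the untreated libraries and the other two stood above them. The log2 fold change of 0.29 was the largest among the members (SE 0.088, adjusted p = 0.0805, edgeR; chromosome 10, 80899450 to 80900969). Without doxycycline replicate 1 the log2 fold change was 0.38 and passed (adjusted p = 0.00818, edgeR), and over all alternatives the adjusted p ran from 0.00818 to 0.335. Of its partners, Timm8a1 had a log2 fold change of 0.08 and Timm8b of -0.01, and Timm8b was low in untreated replicate 2 at 25.3 CPM, against 33.6 and 33.8 CPM in the others. Timm9 and Timm10, which form the other small TIM chaperone, had log2 fold changes of 0.13 and 0.19 (adjusted p = 0.389 and 0.402, edgeR).

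Chchd4, the oxidoreductase of the MIA pathway, stood at 27.7, 26.4 and 29.3 CPM untreated and 30.6, 31.9 and 32.7 CPM with doxycycline. The groups did not overlap, and the log2 fold change was 0.19 (SE 0.070, adjusted p = 0.160, edgeR; chromosome 6, 91464276 to 91473423). Gfer, the sulfhydryl oxidase that reoxidizes Chchd4, had a log2 fold change of 0.07 with overlapping groups.

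In the inner membrane, Timm23, the channel of the presequence pathway, was the steadiest of the members that stood apart. It lay at 57.4, 57.6 and 58.2 CPM untreated and at 63.9, 63.3 and 64.5 CPM with doxycycline. The difference of 10.7% had a 95% interval from 2.45% to 19.6% (log2 fold change 0.15, SE 0.054, adjusted p = 0.159, edgeR; chromosome 14, 32180166 to 32201891). Timm50, the presequence receptor, and Timm21, which links TIM23 to the respiratory chain, were also apart between groups, at log2 fold changes of 0.13 and 0.20 (adjusted p = 0.340 and 0.328, edgeR). The channel-lining subunits Timm17a and Timm17b stood at 0.02 and 0.09. All 5 TIM23 genes were above 0, with a median of 0.13, and none passed the test.

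Timm44, which tethers the Hsp70 motor to TIM23, stood at 59.1, 61.2 and 60.5 CPM untreated and 67.5, 69.1 and 63.3 CPM with doxycycline, without overlap (log2 fold change 0.15, SE 0.056, adjusted p = 0.187, edgeR; chromosome 8, 4259731 to 4275905). The other motor genes overlapped. The J-domain pair Pam16 and Dnajc19 had log2 fold changes of 0.15 and 0.02, and the nucleotide exchange factor Grpel2 of 0.04. Grpel1, of the same kind, stood at 65.6, 60.9 and 63.5 CPM untreated and 64.2, 61.8 and 63.8 CPM with doxycycline, a difference of -0.242%. In the TIM22 complex, Timm22, the carrier insertase, stood at 24.4, 22.6 and 24.2 CPM untreated and 25.7, 27.5 and 23.6 CPM with doxycycline (log2 fold change 0.11, SE 0.078, adjusted p = 0.527, edgeR; chromosome 11, 76406925 to 76416313). Its log2 fold change was 0.05 without doxycycline replicate 2 and 0.165 without replicate 3. Timm10b, the small TIM protein bound to this complex, had a log2 fold change of 0.04.

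In the matrix, Pmpcb, the catalytic subunit of the processing peptidase, stood at 67.7, 68.5 and 66.8 CPM untreated and 67.6, 76.8 and 72.7 CPM with doxycycline (log2 fold change 0.10, SE 0.057, adjusted p = 0.415, edgeR; chromosome 5, 21737160 to 21757152). Its log2 fold change was 0.05 without doxycycline replicate 2 and 0.14 without replicate 1. Its partner Pmpca had a log2 fold change of 0.08. In both genes doxycycline replicate 1 lay within the untreated range. Tomm6os, a noncoding RNA antisense to Tomm6, stood below 1 CPM in every library, with a log2 fold change of 0.004 and a 95% interval from -0.73 to 0.74. Tomm6 and Tomm6os share 219 exonic bases on opposite strands. Dnajc19 shares 178 such bases with Fxr1, which averaged 6030 counts, Timm10b shares 172 of its 694 with Arfip2 (1540 counts), Timm8b 81 with AU019823 (1240 counts), Grpel1 411 with Tada2b (1920 counts) and Pmpca 874 with Inpp5e (652 counts). The longest overlap, 2160 bases of Tomm40l, is with Nr1i3, which averaged 9.17 counts. Since the strand setting of the counting is not stated, reads of such partners cannot be told apart.

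**Figure D3:**
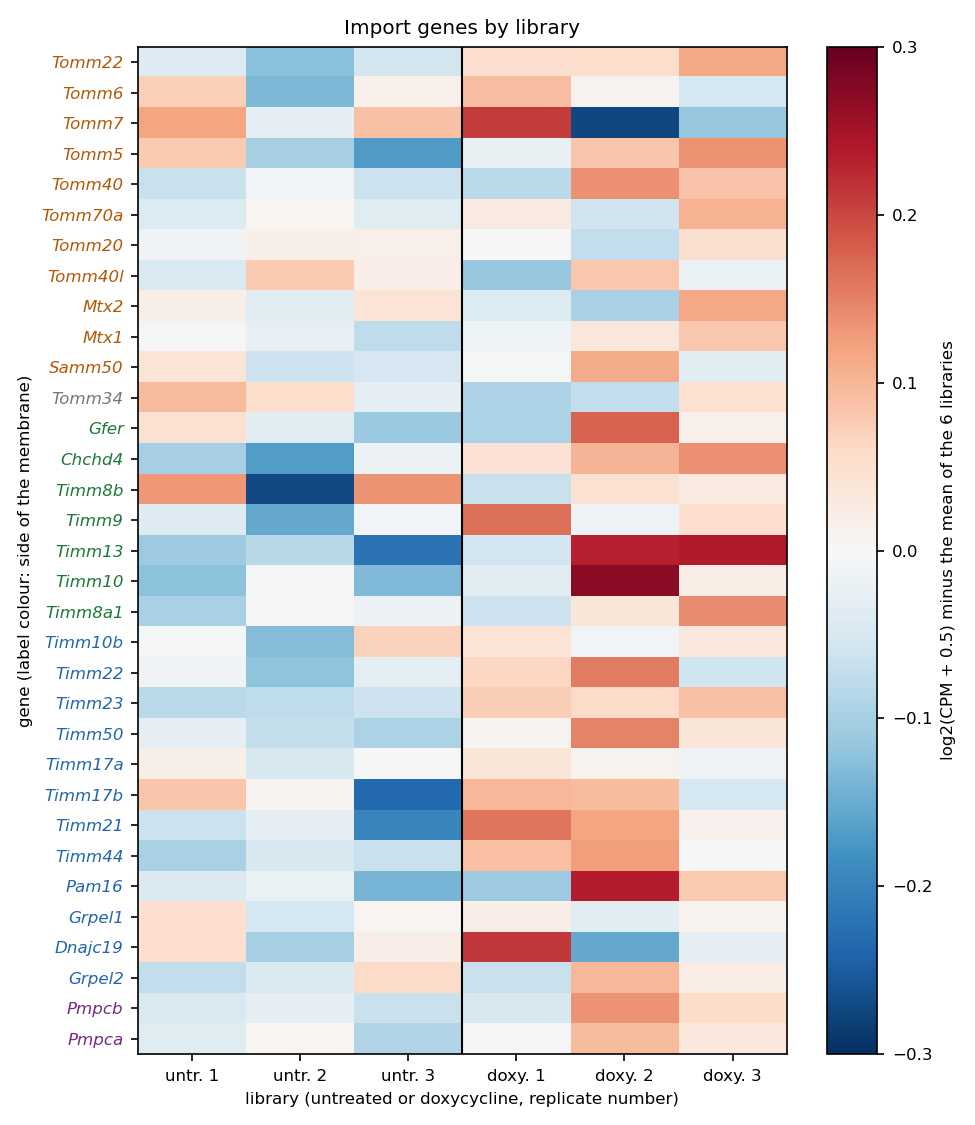
Deviation of log2(CPM + 0.5) from the mean of the 6 libraries for each tested coding member, by library, with label colours for location. Timm23 is below 0 in all 3 untreated and above 0 in all 3 doxycycline libraries, and Tomm7 is high in doxycycline replicate 1 and low in replicate 2.

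Outer and inner membrane genes were then set side by side. Of 11 tested outer membrane genes, 7 had log2 fold changes above 0, with a median of 0.05. This median was 0.0325 without untreated replicate 2 and 0.0746 without untreated replicate 1. Of 12 inner membrane genes, 11 were above 0, with a median of 0.10, which was 0.062 without doxycycline replicate 2. These 12 take in all import motor genes, also the matrix proteins Grpel1 and Grpel2. The gene below 0 was Grpel1 (log2 fold change -0.003), and a median without Grpel1 and Grpel2 was not computed. Of 7 in the intermembrane space 6 were above 0, with a median of 0.13. No gene on either membrane passed the test. The library medians of the inner membrane genes, as log2 deviation from the mean of the 6 libraries, were -0.02, -0.05 and -0.04 in untreated and 0.05, 0.10 and 0.01 in doxycycline libraries. Those of the outer membrane genes were -0.003, -0.03 and -0.04 in untreated and -0.007, 0.03 and 0.08 in doxycycline libraries. The outer minus inner difference was 0.02, 0.02 and 0.007 in untreated libraries and -0.06, -0.06 and 0.07 with doxycycline. Doxycycline replicates 1 and 2 lay below the untreated libraries and replicate 3 above them, so the groups overlapped and no outer to inner difference larger than the spread between replicates was seen.

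**Figure D4:**
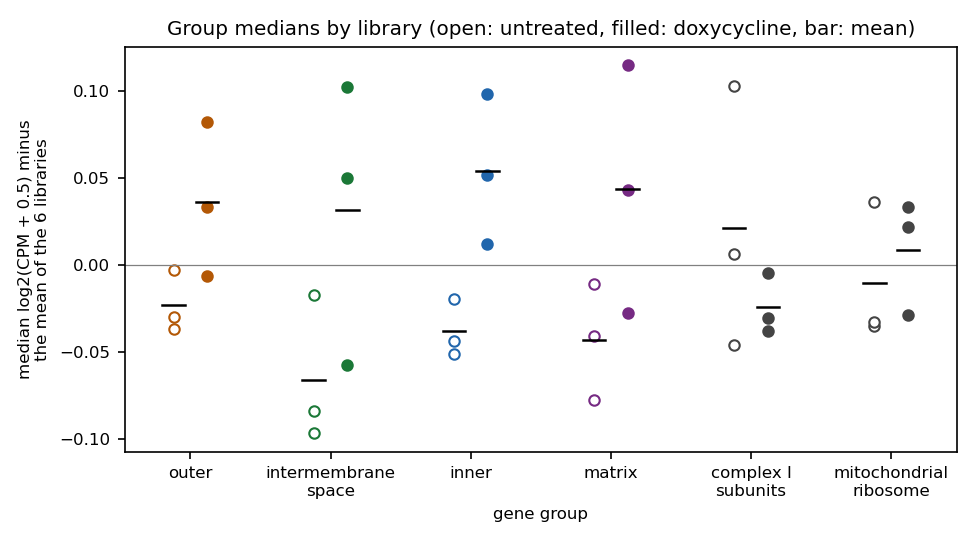
Median deviation of log2(CPM + 0.5) from the mean of the 6 libraries for genes of each location, complex I subunits (matched by Nduf symbols) and mitochondrial ribosomal proteins, with 1 point per library and a bar at the mean. The inner membrane medians, with Grpel1 and Grpel2 counted as inner, do not overlap between groups, at -0.05 to -0.02 untreated and 0.01 to 0.10 with doxycycline. The medians over all 34 tested members, not drawn here, do not overlap either, at -0.05 to -0.03 untreated and 0.005 to 0.07 with doxycycline. How often such medians stand apart for other gene sets was not worked out.

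Ratios between paralogs, on levels per kilobase, were close in all libraries. Timm17a to Timm17b lay between 1.69 and 2.12, and Grpel1 to Grpel2 between 2.83 and 3.40. Pmpca to Pmpcb lay between 0.636 and 0.673, and Mtx2 to Mtx1 between 0.971 and 1.15. Tomm40 to Tomm40l was 12.6, 12.1 and 12.1 in untreated and 13.2, 13.3 and 13.8 in doxycycline libraries. This was the only ratio without overlap between groups, and neither gene passed the test. A share of such ratios over other gene pairs was not worked out.

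The member values moved with GC content in opposite ways in a pair of doxycycline libraries. Across the 33 coding genes, which are not independent replicates and share each library's depth, Pearson's r between GC content and the deviation was -0.50 in doxycycline replicate 1 and 0.51 in replicate 2, against 0.16 in replicate 3. In untreated libraries it was -0.09, 0.10 and -0.31. For exon length on a log2 scale, r was -0.06, 0.42 and 0.12 in untreated and 0.05, -0.24 and -0.17 in doxycycline libraries. With the log2 fold change, r was 0.21 for GC content and -0.28 for exon length. Such correlations over all genes were not worked out. Transcript GC content ran from 40.3% in Dnajc19 to 61.7% in Mtx1. The part of GC content and length in the values of single genes was not tested beyond the GC and length correction.

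**Figure D5:**
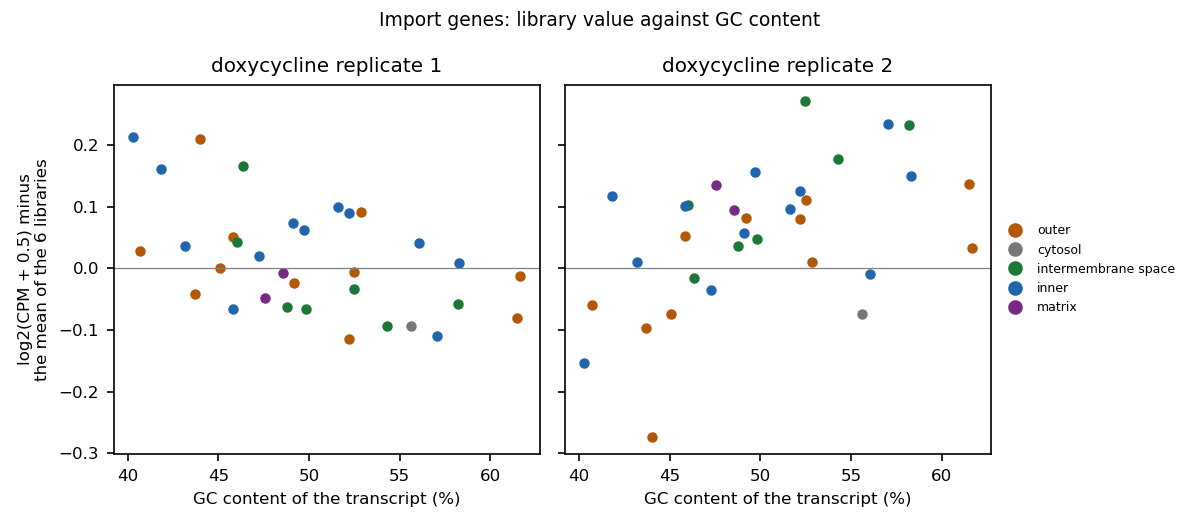
Deviation of log2(CPM + 0.5) from the mean of the 6 libraries against transcript GC content (%), with 1 point per coding member, in doxycycline replicates 1 and 2. The trend falls in replicate 1 (r = -0.50) and climbs in replicate 2 (r = 0.51).

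Among 17 further import genes, 0 passed edgeR's test, against 3.09% of all genes. Unadjusted p-values were under 0.05 for 4 (23.5%, against 16.2% of all genes), 3 of them higher and 1 lower, and the median log2 fold change was 0.04. Dnajc11, a J protein near the SAM complex, averaged 63.4 CPM untreated and 70.9 CPM with doxycycline (log2 fold change 0.16, adjusted p = 0.142, edgeR). Mipep, a matrix peptidase that trims presequences, averaged 24.3 and 27.5 CPM (0.18, adjusted p = 0.189, edgeR), and Hspd1, the matrix chaperonin, 1193 and 1280 CPM (0.10, adjusted p = 0.227, edgeR). Mtch1, an outer membrane insertase, averaged 103 and 93.4 CPM (log2 fold change -0.14, adjusted p = 0.221, edgeR). Without doxycycline replicate 2, Mtch1 passed as lower (adjusted p = 0.00712) and Hspd1 as higher (adjusted p = 0.0463, edgeR). Hspa9, the Hsp70 of the import motor, had a log2 fold change of 0.04. For 77 mitochondrial ribosomal protein genes the median was 0.03, and for 35 tested complex I subunit genes it was -0.06 with 24 below 0, against 6443 of 13084 genes tested. Both lists were taken by symbol pattern, Mrpl or Mrps and a digit, and Nduf with a, b, c, s or v and a digit. They may therefore differ from the true sets of subunits. Of the complex I genes 6 had unadjusted p-values under 0.05 (17.1%, against 16.2% of all genes), 1 higher and 5 lower. Of the ribosomal protein genes 4 did (5.19%). Ndufv3, named after its values were seen, was the only complex I gene called (2.86% of those tested, against 3.09% of all genes). Its log2 fold change was -0.35 (adjusted p = 0.0098, edgeR). The differences between these lists and the members were not tested.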

How the data were processed

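The authors depleted ribosomal RNA, prepared strand-marking (dUTP) libraries, sequenced them on a NovaSeq, and used STAR for alignment to mm10/GRCm38 and featureCounts for counting over genes. Submitters' processing notes name bcl2fastq 2.20 and Subread 1.6.2. The deposited values are raw counts per gene, not normalized, with replicates apart. The strand setting and the handling of multi-mapping reads are not given in the sources used here.

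Groups came from the sample labels, with 3 libraries each, described by the study as biological triplicates, and 0 columns were unmatched. No pair of replicates agreed within sampling noise (chi-square per degree of freedom 6.37 to 23.3). The test was edgeR 4.0.16 (R 4.3.3) quasi-likelihood, robust, with TMM scaling, filterByExpr (13084 genes) and Benjamini-Hochberg adjustment at 0.05 over all genes. The study used DESeq2, run here as an alternative (1.42.0), as was limma voom (3.58.1). CPM used TMM-scaled totals, deviations used log2(CPM + 0.5), and intervals are unadjusted. Exon lengths and GC content came from GENCODE M21 and promoters from RefSeq, both GRCm38. The fit was tested on simulated data. Other alternatives were scaling, filters, a replicate block, leaving out each library and a GC content and length correction. Genes were given with full values if they had the smallest p of their complex or location (for the other import genes, the 3 smallest), others being chosen after their values were seen. The members and lists were chosen with earlier results of these data known.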

Additional observations from a re-analysis of the deposited data

How the results depend on the processing

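No member passed under the other scalings, the filter of at least 10 counts in every library, DESeq2, limma voom or the replicate block. Without a filter on low counts 1 member passed as higher, Timm13 (adjusted p = 0.0251, edgeR), with 3.67% of all genes called. With the GC content and length correction 3 passed as higher, Tomm22 (adjusted p = 0.00638), Timm13 (0.0159) and Chchd4 (0.0439, edgeR), and 2 other import genes, Dnajc11 and Hspd1, while calls over all genes went from 404 to 916. Leaving out 1 library gave 0 to 1 members higher and 0 to 1 lower, and 0 to 1 other import genes higher and 0 to 1 lower. Without doxycycline replicate 1 these were Timm13 (adjusted p = 0.00818) and, as lower, Tomm7 (0.0235, edgeR), with 4.24% of all genes called. Without doxycycline replicate 2 they were Tomm22 (adjusted p = 0.0107), Hspd1 (0.0463) and, as lower, Mtch1 (0.00712, edgeR), with 5.71% of all genes called. The cause was not tested. The median log2 fold change of inner membrane members ran from 0.062 without doxycycline replicate 2 to 0.14 without replicate 3, that of outer membrane members from 0.03 to 0.07 and that of all members from 0.06 to 0.09. Calls over all genes ran from 160 without untreated replicate 3 to 756 without doxycycline replicate 2. Same-numbered libraries did not visibly deviate together (correlations -0.04, -0.004 and 0.02, against -0.05 to 0.05 for differently numbered ones). Whether cultures were handled in pairs cannot be told from these values. With the replicate number as a block, 0 members passed, 418 genes did, and the member median was 0.07. Tomm6os, below 1 CPM, ran from -0.13 to 0.18 on the log2 scale when 1 library was left out. Depth limits Tomm20l, Timm8a2 and Tomm6os.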
